A study of Mus musculus with 16 samples.

Results

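The nuclear genome encodes most subunits of the mitochondrial respiratory chain, and 95 of the 22468 genes in the count table were such genes. They were the genes whose Ensembl identifier maps to a mouse symbol that begins with Nduf, Uqcr, Cox4 to Cox8 or Atp5, or that is Sdha, Sdhb, Sdhc or Sdhd. The rule used names only and no measured value, but it was chosen with earlier results of these data known. Complex I was represented by 45 genes, complex II by 4, complex III by 8, complex IV by 20 and complex V by 18. The rule also takes in 10 assembly factors and related proteins that are not subunits, and it misses subunits with other names such as Cyc1.

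Messenger RNA was measured by poly(A) RNA sequencing of whole ventricles of neonatal mice, in 4 groups of 4 libraries. WT-SH libraries came from wild-type mice after sham surgery and WT-MI libraries from wild-type mice after surgical myocardial infarction. KO-SH and KO-MI libraries came from mice of the Chrna7 knock-out line Jax 003232 after the same operations. Chrna7 encodes the alpha7 nicotinic acetylcholine receptor. No drug or further allele is named for any group, and age in days, sex, litter and time after surgery are not given in the labels. Tissue above and below the ligation was combined, so infarcted and spared muscle are mixed in each MI library, and the knock-out is described by gene only, not by cell type. Nothing in the labels says that the libraries of a group came from separate animals, so the p-values measure the spread between these libraries, which may in part be technical.

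Complex I (NADH dehydrogenase) and complex II (succinate dehydrogenase) pass electrons to ubiquinone, complex III passes them to cytochrome c, and complex IV (cytochrome c oxidase) passes them to oxygen. Complexes I, III and IV pump protons across the inner mitochondrial membrane, and complex V (ATP synthase) uses the gradient to make ATP. Heart muscle is rich in mitochondria, and its transcripts for these subunits increase around birth, when several complex IV subunits also shift from widely expressed isoforms to muscle isoforms.

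The promoters of 6 members are shown because the results below turn on these genes: Cox8a and Cox6a1, widely expressed complex IV isoforms; Cox8b, the muscle counterpart of Cox8a; Cox6b2, an isoform best known from testis; Ndufaf5, a complex I assembly factor; and Sdha, the catalytic subunit of complex II. Each line runs 5′ to 3′ from 250 bases before to 50 bases after the RefSeq transcription start, from the RefSeq promoter table of build GRCm38.p6. Capitals mark matches on either strand to motifs of NRF1 (GCGCA, any base, then GCGC), ETS factors (CCGGAAG), ERR receptors (AAGGTCA), YY1 (AAGATGGCG) or MEF2 (CTA, any 4 bases, then TAG). No match of a different motif overlapped another.
Cox8a: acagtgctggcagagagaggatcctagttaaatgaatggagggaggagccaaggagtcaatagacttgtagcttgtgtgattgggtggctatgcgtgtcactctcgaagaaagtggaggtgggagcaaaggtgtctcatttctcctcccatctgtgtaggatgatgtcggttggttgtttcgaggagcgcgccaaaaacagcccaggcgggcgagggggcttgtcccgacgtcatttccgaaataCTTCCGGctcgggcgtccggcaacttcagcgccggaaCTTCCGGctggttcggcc
Cox8b: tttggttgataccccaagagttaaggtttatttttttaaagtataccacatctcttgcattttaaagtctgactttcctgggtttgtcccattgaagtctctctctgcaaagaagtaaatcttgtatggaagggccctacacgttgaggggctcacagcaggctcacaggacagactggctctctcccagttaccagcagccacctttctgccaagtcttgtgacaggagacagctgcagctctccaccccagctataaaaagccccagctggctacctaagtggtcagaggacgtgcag
Cox6a1: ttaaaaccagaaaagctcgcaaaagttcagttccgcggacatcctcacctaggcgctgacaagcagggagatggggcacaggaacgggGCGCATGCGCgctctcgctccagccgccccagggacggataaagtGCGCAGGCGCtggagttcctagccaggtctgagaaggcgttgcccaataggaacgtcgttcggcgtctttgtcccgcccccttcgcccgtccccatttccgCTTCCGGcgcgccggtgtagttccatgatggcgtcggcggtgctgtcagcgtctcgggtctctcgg
Cox6b2: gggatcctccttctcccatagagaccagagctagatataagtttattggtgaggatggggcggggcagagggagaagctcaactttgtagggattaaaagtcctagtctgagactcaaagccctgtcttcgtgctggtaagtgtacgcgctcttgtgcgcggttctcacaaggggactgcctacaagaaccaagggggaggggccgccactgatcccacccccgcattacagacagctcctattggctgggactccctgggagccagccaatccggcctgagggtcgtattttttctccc
Ndufaf5: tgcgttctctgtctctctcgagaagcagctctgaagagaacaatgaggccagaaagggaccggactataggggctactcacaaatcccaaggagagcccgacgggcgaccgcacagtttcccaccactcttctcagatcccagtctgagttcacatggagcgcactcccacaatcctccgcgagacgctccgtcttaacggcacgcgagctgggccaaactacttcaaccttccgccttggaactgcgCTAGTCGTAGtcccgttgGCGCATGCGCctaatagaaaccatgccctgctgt
Sdha: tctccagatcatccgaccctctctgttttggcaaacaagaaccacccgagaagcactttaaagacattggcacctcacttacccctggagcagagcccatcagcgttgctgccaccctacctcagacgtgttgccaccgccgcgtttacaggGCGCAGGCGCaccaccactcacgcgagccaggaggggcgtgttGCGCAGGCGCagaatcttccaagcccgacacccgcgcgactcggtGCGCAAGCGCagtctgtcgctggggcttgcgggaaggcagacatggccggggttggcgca
Cox8a lies on the minus strand at chr19:7217567-7217866, and both capital runs in it are ETS matches on the reverse strand. Cox8b is at chr7:140900397-140900696 and Cox6b2 at chr7:4753045-4753344, both on the minus strand, and neither window held any of the letters searched. Cox6a1, at chr5:115348909-115349208 on the minus strand, held NRF1 matches and an ETS match. Ndufaf5, at chr2:140170396-140170695 on the plus strand, held a MEF2 match followed by an NRF1 match. Sdha, at chr13:74350191-74350490 on the minus strand, held 3 NRF1 matches.

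A promoter of this length was listed for 76 of the 94 member symbols. An NRF1 match was present in 19 of the 76 (25.0%), against 5.19% of the promoters of all 27025 genes in the table. ETS matches were present in 18 members (23.7%, against 9.93% of all), YY1 matches in 8 (10.5%, against 1.64%), ERR matches in 8 (10.5%, against 5.38%) and MEF2 matches in 2 (2.63%, against 4.23%). NRF1, the ETS protein GABP, YY1 and the ERR receptors are textbook regulators of respiratory chain genes. A match describes letters in the window and is not evidence of binding.

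Of the 95 genes, 92 had enough reads to be tested. Cox8c had 0 counts, which allows up to 0.28 CPM in the library with the fewest reads (3 counts), and Cox7b2 had 15 counts over all libraries; these 2 isoforms are best known from testis. Atp5o is listed under 2 identifiers, of which the second had 0 counts. Ndufb1-ps is annotated as a non-coding RNA with a pseudogene symbol and is counted with complex I. Levels are given as CPM, the reads of a gene scaled by the library's reads in the tested genes and edgeR's TMM factor. Levels of different genes are compared only as CPM per kilobase of transcript. On that scale, averaged over the 16 libraries, Cox4i1 (3672) and Atp5b (3573), the catalytic beta subunit of ATP synthase, were highest. Atp5g3, a membrane-ring subunit, stood at 2392, Atp5a1, the alpha subunit, at 2077 and Uqcrq, a small complex III subunit, at 2024.

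The isoforms of complex IV differed widely in level per kilobase. Cox4i1 exceeded Cox4i2 (18.0), Cox6b1 (1160) exceeded Cox6b2 (16.5), and Ndufa4 (1511), a complex IV subunit despite its name, exceeded Ndufa4l2 (27.8). The muscle isoforms were of the same order as their widely expressed partners, at 1140 for Cox6a2 and 791 for Cox6a1, 841 for Cox7a1 and 578 for Cox7a2, and 1172 for Cox8b and 563 for Cox8a. Complex I assembly factors were low, from 13.8 for Ndufaf4 to 44.5 for Ndufaf2.

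Reads assigned to genes numbered 10711442 to 17223580 per library, and the 95 genes took 5.04 to 6.34% of them. Chrna7 had 0 to 2 reads per library in each of WT-SH, WT-MI and KO-SH and 2 to 4 in KO-MI, so its reads do not check the genotype labels. The cardiomyocyte markers Myh6, Myl2 and Tnni3 were abundant in every library, but KO-MI-4 stood apart from the rest of its group. Its Myh6 was 13345 CPM, against 30521 to 38780 in the other 15 libraries, and its Col1a1, a fibroblast gene, was 413 CPM, against at least 838 elsewhere. Other genes of these lists did not all go the same way. Ryr2, Myh7, Actc1 and Tnnt2 were also the lowest of all libraries, but Myl2 (9527 CPM), Myl3, Tnni3 and Pln lay within the range of the others. Of the fibroblast genes, Col1a2 and Col3a1 were also the lowest and Pdgfra lay within range. Postn (1296 CPM), Dcn (424 CPM) and Lum (170 CPM) were the highest of all libraries. Mitochondrially encoded genes took 17.3% of its reads, against 9.51 to 13.4% elsewhere, and its summed lung epithelial markers were 312 CPM, against at most 157. Its chi-square per gene against the other KO-MI libraries was 54.9 to 66.2, where other pairs of replicates had 3.74 to 20.6. The counts of members called in comparisons that use KO-MI are also given without it. Pooled Y-linked reads were at most 2.82 CPM in WT-SH-1, KO-SH-2 and KO-MI-1 and at least 147 CPM in the other 13 libraries. The 4 KO-SH libraries stood apart on the leading principal component of all genes, with scores of 27.9 to 31.6 and no other library above 1. WT-SH-3 and WT-SH-4 had the highest levels of the members: the median member was 0.19 and 0.28 above its mean over all libraries on the log2 scale. Cytosolic ribosomal protein genes, which also have short transcripts, were higher in the same libraries, by 0.25 and 0.32. The members are short, with a median transcript of 742 bases against 2305 for all genes in the table.

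The summed level of each complex was similar in the 4 groups. Complex I summed to 14526 ± 1580 CPM in WT-SH, 13360 ± 525 in WT-MI, 13579 ± 786 in KO-SH and 13772 ± 855 in KO-MI (mean ± SD, n = 4 each). Complex V summed to 23670 ± 1873 CPM in WT-SH, 21120 ± 1314 in WT-MI, 21831 ± 928 in KO-SH and 20941 ± 743 in KO-MI. Their ranges overlapped between groups in all 4 pairwise comparisons of the design, as did those of complexes III and IV. The wide spread of WT-SH came from its 2 highest libraries: complex IV summed to 9710, 9614, 12250 and 13872 CPM in WT-SH-1 to WT-SH-4. Complex II summed to 3308 ± 123 CPM in KO-SH and 3006 ± 79 in KO-MI, and these 2 groups did not overlap. No test was run on the sums. In bulk tissue, fewer cardiomyocytes and less RNA per cardiomyocyte cannot be told apart.

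**Figure D1:**
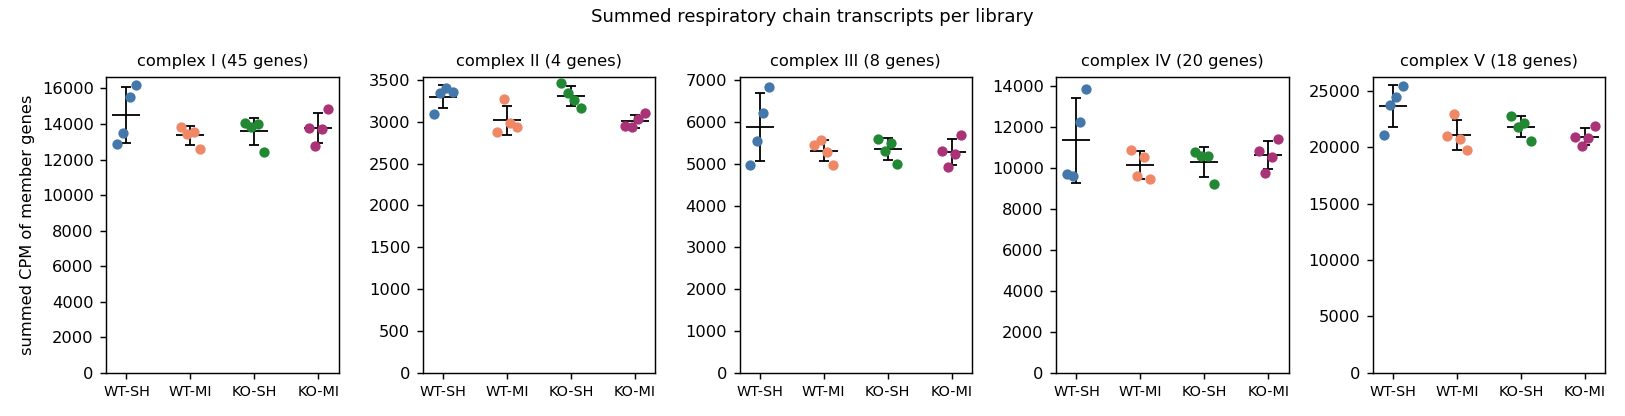
Summed CPM of the member genes of each complex (vertical axis, from 0) in each library of the 4 groups (points), with mean and SD (n = 4). WT-SH-3 and WT-SH-4 are the highest points for complexes I, III, IV and V, and for complex II all KO-SH points (3168 to 3459) lie above all KO-MI points (2938 to 3104).

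After infarction in wild-type mice, no respiratory chain gene passed the test. With edgeR's quasi-likelihood test and Benjamini-Hochberg adjustment, 2.25% of all 13412 genes tested were called in WT-MI against WT-SH at an adjusted p under 0.05 (1.32% higher and 0.932% lower), and 0 of the 92 members. DESeq2 called 0 members, beside 3.81% of all genes, and limma voom 1, beside 3.69%. An unadjusted edgeR p under 0.05 was found for 14 of the 92 members and for 2007 of the 13412 genes. Members were slightly lower in WT-MI, with a median log2 change of -0.14 and 84 of 92 below 0, against a median of -0.01 over all genes. By complex the medians were -0.12 for I, -0.16 for II, -0.12 for III, -0.20 for IV and -0.17 for V. The member median stayed negative under each scaling tried, between -0.12 and -0.14, and was 0.00 without WT-SH-3 and WT-SH-4.

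Genes of the cell marker lists moved in the same comparison. Of 7 erythroid markers 5 fell, with a summed level of 2966 to 4731 CPM in WT-SH and 1711 to 2116 CPM in WT-MI, without overlap. Of 7 mesothelial markers 1 fell (90.6 to 136 CPM against 59.8 to 75.5), of 6 tested leukocyte and macrophage markers 1 rose (71.4 to 85.4 CPM against 108 to 180), and of 5 tested skeletal muscle markers 1 rose (2587 to 3567 CPM against 2888 to 3559). Most of the skeletal muscle sum was Ckm (3045 of 3216 CPM in the WT-SH mean), which heart muscle also expresses. Myog, Myh1, Myh2 and Myh4 were at most 0.92 CPM in any library. The rest of the list was higher. Acta1 averaged 162 CPM in WT-SH, 303 in WT-MI and 59.7 in KO-SH, and Myh8 7.22, 5.44 and 1.08 CPM. Myh3 reached 3.86 CPM in KO-MI-2 and Tnnt3 2.28 CPM in WT-SH-3. Whether the libraries hold skeletal muscle was not tested. No tested marker of the ventricular (79601 to 92346 CPM against 75115 to 80944), atrial, brown fat, fibroblast, endothelial or lung epithelial lists was called. Their part in the changes of the members was not tested.

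The core subunits were all between -0.26 and -0.01 in that comparison. They carry the catalytic and electron-transfer sites, except Atp5c1, Atp5d and Atp5e, which belong to the stalk of ATP synthase. Atp5b had 7392 ± 468 CPM in WT-SH and 6643 ± 497 in WT-MI (log2 change -0.15 ± 0.08 SE, adjusted p = 0.402, edgeR). Ndufs1, the large iron-sulfur subunit of complex I, had 698 ± 44.7 CPM in WT-SH and 614 ± 44.8 in WT-MI (-0.18 ± 0.08, adjusted p = 0.277, edgeR). Sdha had 1769 ± 38.1 and 1614 ± 66.8 CPM (-0.13 ± 0.07, adjusted p = 0.419, edgeR). The isoforms best known from hypoxic or lung tissue had positive values that did not pass, Ndufa4l2 at 0.28 ± 0.13 and Cox4i2 at 0.17 ± 0.17, and the assembly factors had a median of -0.00 with 5 of 10 positive.

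In sham-operated mice, 8 members were lower in the knock-out than in the wild type and none was higher. In KO-SH against WT-SH, 15.3% of all genes tested were called by edgeR (7.74% lower and 7.6% higher). The 8 members are 8.70% of the 92. This is near the 7.74% of all genes called lower and below the 15.3% called in either direction. The count ran from 3 (without KO-SH-4, beside 9.59% of all genes) to 23 (without WT-SH-1, beside 15.4%) when 1 library was left out. DESeq2 called 14 members, beside 18.4% of all genes, and limma voom 34, beside 29.1%. The 8 were Cox6b2, Cox8a and Cox7a2 of complex IV, Ndufaf5 and Ndufa11 of complex I, Uqcrh of complex III, and Atp5d and Atp5j2 of complex V. The median member changed by -0.13, with 77 of 92 below 0, against -0.01 for all genes; it was between -0.11 and -0.13 under the scalings tried, 0.00 without WT-SH-3 and WT-SH-4, and 0.03 once each library's trend with transcript length and GC content was removed (the length and GC correction).

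Cox6b2 was low in every library but showed the largest difference among the members. It measured 11.5, 10.6, 11.97 and 13.1 CPM in the WT-SH libraries and 6.83, 6.18, 4.71 and 5.69 CPM in the KO-SH libraries. Every KO-SH value lay below every WT-SH value. The fall was 2.003-fold (log2 change -1.002 ± 0.15 SE, adjusted p = 0.000255, edgeR). In WT-MI the values were 8.56, 10.2, 9.25 and 8.41 CPM and in KO-MI 8.63, 11.9, 11.1 and 7.73 CPM, which overlapped.

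Cox8a, a small subunit of complex IV, measured 305, 298, 410 and 511 CPM in WT-SH and 243, 227, 238 and 210 CPM in KO-SH. The groups did not overlap, and WT-SH-3 and WT-SH-4 were the highest of all 16 libraries. The log2 change was -0.73 ± 0.14 (adjusted p = 0.0016, edgeR), and -0.39 (adjusted p = 0.04) without those 2 libraries. Ndufaf5 measured 25.0, 28.3, 30.1 and 30.5 CPM in WT-SH and 19.2, 18.5, 20.8 and 20.4 CPM in KO-SH. The groups were again separate, with a log2 change of -0.53 ± 0.09 (adjusted p = 0.000533, edgeR). Cox6b2, Cox8a and Ndufaf5 kept their calls in every alternative run, including the length and GC correction, where their changes were -0.77, -0.48 and -0.42.

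The other 5 were less firm. Cox7a2, the widely expressed partner of Cox7a1, measured 366, 377, 480 and 503 CPM in WT-SH and 363, 336, 344 and 316 CPM in KO-SH, groups that did not overlap but came within 3 CPM of each other (-0.35 ± 0.11, adjusted p = 0.0393, edgeR). Ndufa11, an accessory subunit of the complex I membrane arm, changed by -0.46 ± 0.12 (adjusted p = 0.0135, edgeR) and Uqcrh, the hinge protein of complex III, by -0.41 ± 0.13 (adjusted p = 0.034, edgeR). Atp5d, the delta subunit of the ATP synthase stalk, changed by -0.43 ± 0.12 (adjusted p = 0.0258, edgeR) and Atp5j2, a membrane subunit, by -0.42 ± 0.14 (adjusted p = 0.0419, edgeR). For Ndufa11, Uqcrh, Atp5d and Atp5j2 the 2 groups overlapped. The calls of Cox7a2, Uqcrh and Atp5j2 each ended in 6 of 8 fits that left out 1 library. None of the 5 passed without WT-SH-3 and WT-SH-4 together or after the length and GC correction. Exons of Ndufa11 and Atp5d overlap those of Vmac and Cbarp on the opposite strand, and the strand setting of the counting is not given, so reads of the overlapping genes cannot be told apart. The same holds for other members: 27 overlap an exon of another counted gene, 24 of them on the opposite strand. Ndufa4l2, Cox6a2, Cox4i1, Atp5a1 and Ndufb1-ps are among these.

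The knock-out sham libraries also differed from wild-type sham in genes of the marker lists. All 4 atrial markers fell, with a summed level of 709 to 3316 CPM in WT-SH and 272 to 607 CPM in KO-SH. All 7 mesothelial markers fell (90.6 to 136 CPM against 27.7 to 34.7), as did all 7 erythroid markers (2966 to 4731 CPM against 991 to 1407). Of 5 tested skeletal muscle markers, 3 fell (2587 to 3567 CPM against 2299 to 2664), and of 9 ventricular cardiomyocyte markers 1 fell (79601 to 92346 CPM against 73291 to 75974). The skeletal muscle sum was again mostly Ckm (2447 of 2510 CPM in the KO-SH mean). The part of these markers in the changes of the members was not tested. Of 7 fibroblast markers and of 5 endothelial markers 1 each rose. Of the brown fat list, 4 of 8 genes were tested and 1 fell (52.8 to 93.7 CPM against 45.1 to 50.6). Ucp1, the defining brown fat gene, was at 32.3, 15.6, 7.49 and 0 CPM in WT-SH-1 to WT-SH-4 and at most 1.37 CPM in KO-SH. The part of brown fat genes in the changes of the members was not tested.

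After infarction in the knock-out, 5 members rose and 2 fell. In KO-MI against KO-SH, 16.6% of all genes tested were called by edgeR (8.54% higher and 8.02% lower), and 7 members, 7.61% of the 92, were called. Those that rose were Cox6b2, Cox6a1, Cox8a and Cox7a2l of complex IV and Ndufaf5 of complex I, and those that fell were Ndufs1 of complex I and Sdha of complex II. The KO-SH libraries enter this comparison, the sham comparison and the interaction, so these are not independent. The median member changed by 0.05, between 0.04 and 0.08 under the scalings tried, against 0.01 for all genes; it was -0.00 without KO-MI-4 and -0.19 after the length and GC correction. Without KO-MI-4, 5 members were called, beside 21.7% of all genes, Cox8a and Cox7a2l having lost their calls.

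The libraries of KO-MI measured 8.63, 11.9, 11.1 and 7.73 CPM for Cox6b2, all above the 4.71 to 6.83 CPM of KO-SH. The rise was 1.68-fold (0.75 ± 0.15, adjusted p = 0.00308, edgeR). Cox6a1 measured 366, 353, 411 and 325 CPM in KO-SH and 445, 530, 509 and 579 CPM in KO-MI, without overlap (0.50 ± 0.12, adjusted p = 0.00794, edgeR). It measured 475, 343, 491 and 507 CPM in WT-SH, so that KO-SH overlapped the wild-type sham group (-0.32 ± 0.12, adjusted p = 0.0701, edgeR). For Ndufaf5 the KO-MI libraries measured 26.4, 25.1, 25.9 and 25.5 CPM, all above KO-SH (0.38 ± 0.09, adjusted p = 0.00625, edgeR).

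Cox8a measured 292, 316, 302 and 350 CPM in KO-MI, above all KO-SH libraries (0.46 ± 0.14, adjusted p = 0.0276, edgeR). Cox7a2l, which helps complexes III and IV form supercomplexes, measured 179, 158, 154 and 160 CPM in KO-SH and 181, 182, 190 and 239 CPM in KO-MI. These groups were separate by the gap between 179 and 181 CPM only, and the change was 0.28 ± 0.09 (adjusted p = 0.0448, edgeR). The calls of Cox8a and Cox7a2l each ended in 6 of 8 fits that left out 1 library. After the length and GC correction Cox8a, Cox7a2l, Cox6a1 and Ndufaf5 did not pass, at 0.18, 0.08, 0.23 and 0.20, whereas Cox6b2 did, at 0.45. With the correction and without KO-MI-4, Ndufaf5 passed at 0.27 (adjusted p = 0.03995, edgeR).

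Ndufs1 was lower in all KO-MI libraries than in any KO-SH library. It measured 810, 770, 769 and 782 CPM in KO-SH and 637, 540, 597 and 621 CPM in KO-MI. The fall was 1.31-fold (-0.39 ± 0.08, adjusted p = 0.00385, edgeR) and was called in every alternative. An exon of Ndufs1 overlaps Eef1b2 on the opposite strand. Sdha measured 2007, 1926, 1855 and 1835 CPM in KO-SH and 1649, 1594, 1656 and 1467 CPM in KO-MI. These groups were also separate (-0.26 ± 0.07, adjusted p = 0.0223, edgeR), and the call ended without KO-SH-1, without KO-SH-2 or without KO-MI-2. The other 3 complex II subunits did not pass: Sdhb at 0.13 ± 0.10, Sdhc at -0.15 ± 0.09 and Sdhd at -0.09 ± 0.11.

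**Figure D2:**
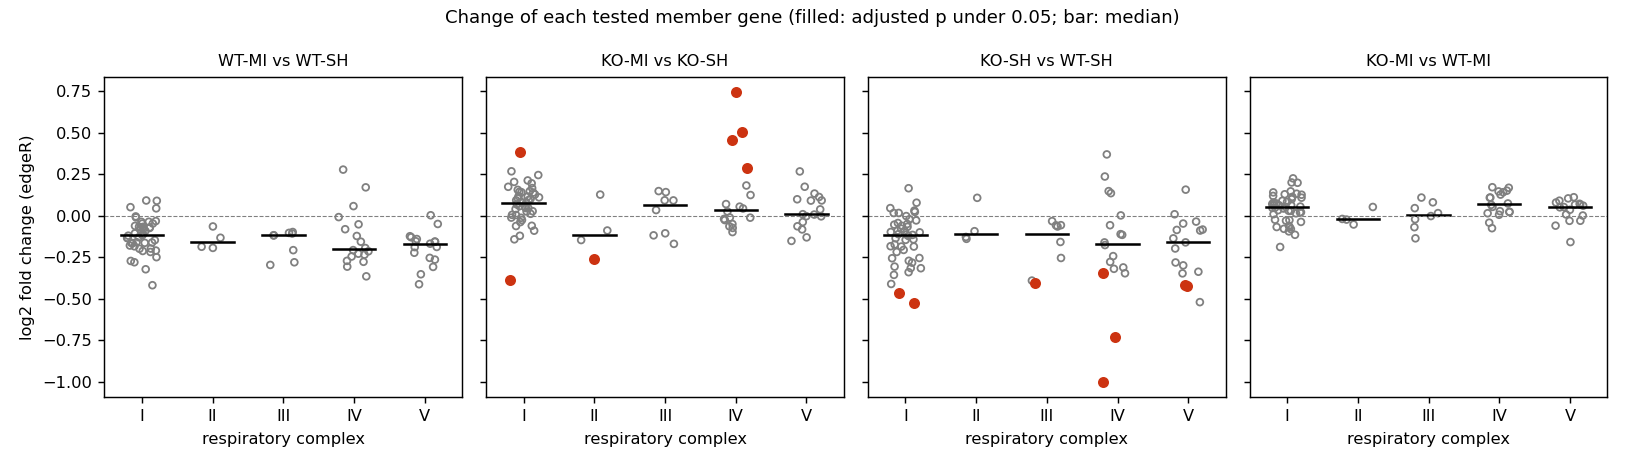
Log2 fold change (vertical axis, edgeR) of each of the 92 tested members in the 4 pairwise comparisons, by complex; filled points passed an adjusted p under 0.05 and bars are medians. The filled points number 0, 7, 8 and 0 from left to right, and most members lie within 0.5 of 0.

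**Figure D3:**
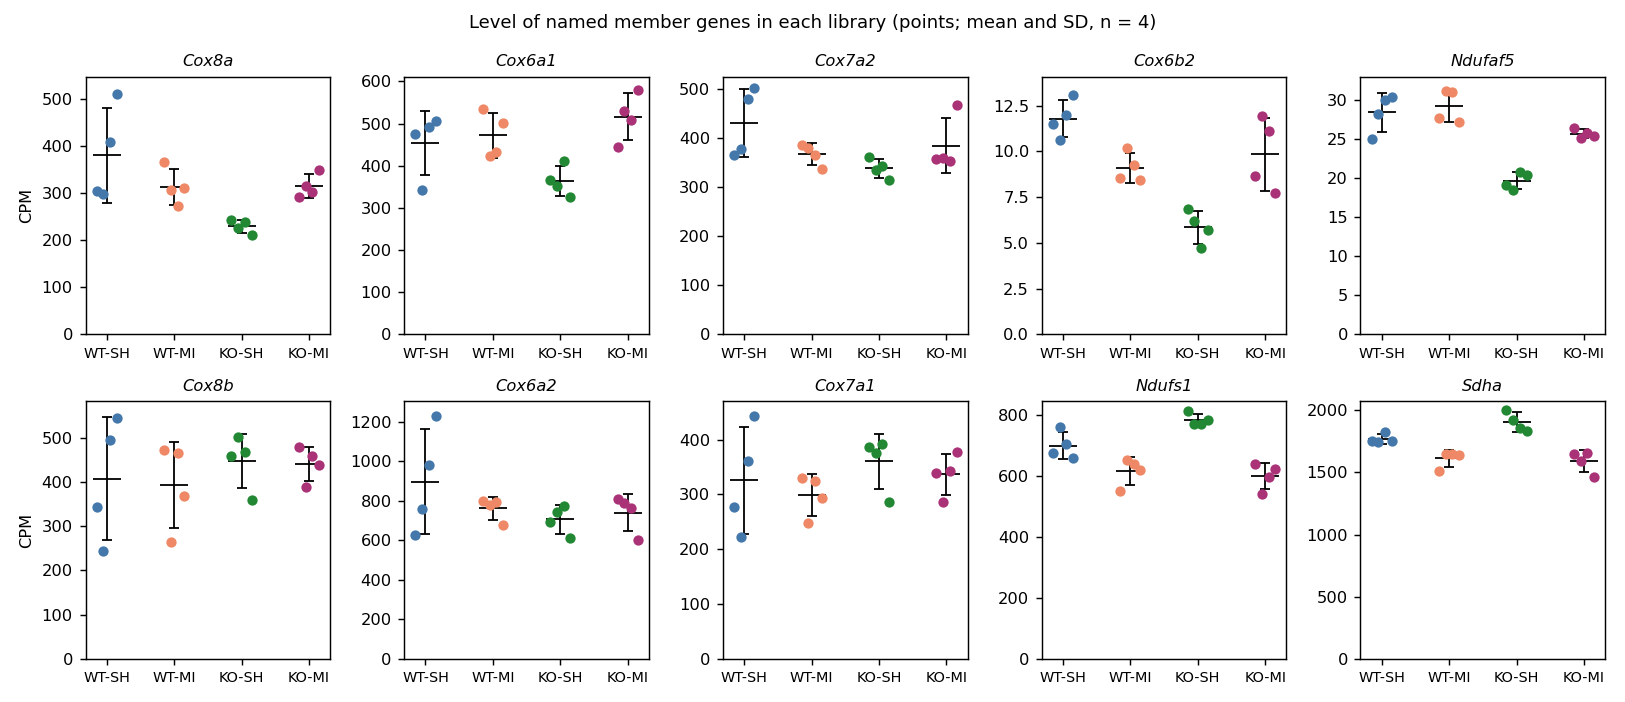
CPM (vertical axes, from 0) of 10 named members in each library (points), with mean and SD (n = 4). KO-SH is the lowest group for Cox8a, Cox6b2 and Ndufaf5 and lies above KO-MI in every library for Ndufs1 and Sdha.

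By role, the members can be described as follows in KO-MI against KO-SH, where 8.54% of all genes tested were called higher and 8.02% lower. The 17 core genes had a median change of -0.01 (11 of 17 below 0), with 2 called lower. The 58 tested accessory genes, a class that here includes the widely expressed complex IV isoforms, had a median of 0.08 (42 of 58 above 0), with 2 called higher, and the 10 assembly factors had a median of 0.16 (9 of 10 above 0), with 2 called higher. Among core subunits that did not pass, Atp5a1 stood at -0.15 ± 0.08, Ndufv1, the NADH-binding subunit, at -0.14 ± 0.10, and Uqcrfs1, the Rieske iron-sulfur protein, at -0.17 ± 0.10. The difference between the classes was not tested.

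Genes of the marker lists also moved with infarction in the knock-out. Of 6 tested leukocyte and macrophage markers 4 rose, with a summed level of 95.6 to 112 CPM in KO-SH, 133 to 227 CPM in KO-MI-1 to KO-MI-3 and 328 CPM in KO-MI-4. All 7 mesothelial markers rose (27.7 to 34.7 CPM against 47.1 to 122), as did 3 of 7 erythroid markers (991 to 1407 CPM against 1124 to 1859), 2 of 5 tested skeletal muscle markers (2299 to 2664 CPM against 2785 to 3048) and 1 of 4 atrial markers (272 to 607 CPM against 648 to 2744). Ckm again made most of the skeletal muscle sum (2794 of 2952 CPM in the KO-MI mean). Of 9 ventricular cardiomyocyte markers 2 fell. Their summed level was 73291 to 75974 CPM in KO-SH, 72732 to 78179 CPM in KO-MI-1 to KO-MI-3 and 52406 CPM in KO-MI-4. Of 7 fibroblast markers 1 fell (6310 to 6661 CPM in KO-SH against 6933 to 7418 CPM in KO-MI-1 to KO-MI-3 and 5444 CPM in KO-MI-4). The part of these markers in the changes of the members was not tested.

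Between the genotypes after infarction, no member passed. In KO-MI against WT-MI, 0.0149% of all genes tested were called by edgeR (0.00746% in each direction), and 0 of 92 members. DESeq2 and limma voom also called 0 members. Only 1 member, Ndufaf5, had an unadjusted edgeR p under 0.05 (-0.19 ± 0.09, adjusted p = 0.976, edgeR), beside 638 of all 13412 genes. The median member differed by 0.05, with 67 of 92 above 0. Every member lay between -0.19 and 0.22. Cox8a was 314 ± 38.6 CPM in WT-MI and 315 ± 25.2 in KO-MI (0.01 ± 0.14, adjusted p = 0.999, edgeR). No tested gene of the 10 marker lists was called in this comparison, and without KO-MI-4 the count of members stayed at 0.

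The response to infarction differed between genotypes for 2 members. The interaction test subtracts the wild-type response from the knock-out response, and 2.74% of all genes tested were called by edgeR (1.65% positive and 1.1% negative). Of the 92 members tested, 2 were called, both positive. This share is below the 2.74% of all genes called in either direction and above the 1.65% called positive. Cox6b2 stood at 1.11 ± 0.21 (adjusted p = 0.00651, edgeR), from a response of -0.37 ± 0.15 in the wild type and 0.75 in the knock-out. Cox8a stood at 0.73 ± 0.19 (adjusted p = 0.0433, edgeR), from -0.28 ± 0.14 and 0.46. The call of Cox6b2 held in every alternative, and that of Cox8a ended in 11 of 16 fits that left out 1 library, among them the fit without KO-MI-4. The median over all members was 0.19, with 83 of 92 above 0, against 0.00 over all genes, and between 0.16 and 0.20 under the scalings tried; it was 0.02 without WT-SH-3 and WT-SH-4 and -0.04 after the length and GC correction.

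Of the complex IV subunits, 3 have a muscle isoform and a widely expressed one, and their ratio within a library does not depend on library scaling. The log2 ratio of Cox8b to Cox8a was 0.17, -0.29, 0.28 and 0.10 in the WT-SH libraries and 0.92, 1.14, 0.97 and 0.77 in the KO-SH libraries. Every KO-SH library had the higher ratio, by 0.89 in the mean (two-sided exact permutation p = 0.0286, adjusted p = 0.0857 over 12 tests). KO-MI libraries, at 0.71, 0.30, 0.60 and 0.32, were all below KO-SH, by 0.47 in the mean (exact permutation p = 0.0286, adjusted p = 0.0857). Cox8b itself did not pass in either comparison, at 0.14 ± 0.21 in KO-SH against WT-SH and -0.02 ± 0.21 in KO-MI against KO-SH.

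The log2 ratio of Cox7a1 to Cox7a2 was -0.40, -0.77, -0.41 and -0.18 in WT-SH and 0.09, 0.16, 0.19 and -0.14 in KO-SH, again without overlap (mean difference 0.52, exact permutation p = 0.0286, adjusted p = 0.0857). Cox7a1 stood at 0.15 ± 0.16 in that comparison. The log2 ratio of Cox6a2 to Cox6a1 was 0.92, 1.07, 0.91 and 0.91 in KO-SH and 0.86, 0.57, 0.58 and 0.06 in KO-MI (mean difference -0.44, exact permutation p = 0.0286, adjusted p = 0.0857). The mean difference was -0.28 without KO-MI-4. Cox6a2 stood at 0.07 ± 0.15 there. The other 8 of the 12 comparisons overlapped. With 4 against 4 libraries the smallest p is 0.0286, so no ratio passed after adjustment, and 4 of the 12 reached that smallest value.

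**Figure D4:**
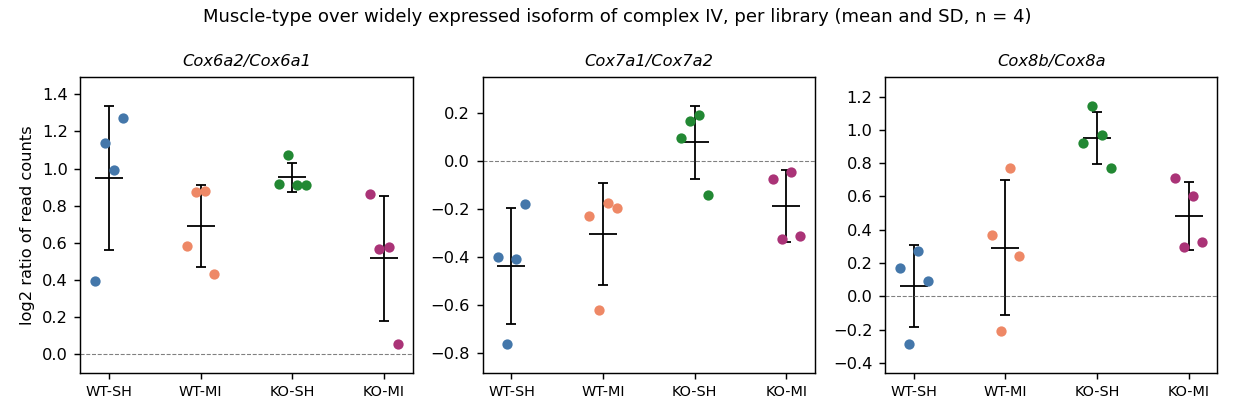
Log2 ratio of read counts of the muscle isoform to the widely expressed isoform (vertical axes) in each library (points), with mean and SD (n = 4). KO-SH lies above every WT-SH library for Cox8b/Cox8a (mean 0.95 against 0.06) and Cox7a1/Cox7a2 (0.08 against -0.44), and the WT-SH and KO-SH means of Cox6a2/Cox6a1 are both 0.95.

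In the other isoform pairs of complex IV, Cox6b2 was the only gene called before the length and GC correction. Cox4i1 measured 2760 ± 388 CPM in WT-SH and 2763 ± 240 in KO-SH (0.00 ± 0.11, adjusted p = 0.994, edgeR), and Cox4i2 11.8 ± 2.998 and 13.8 ± 1.26 CPM (0.24 ± 0.17). Ndufa4 stood at -0.18 ± 0.09 and Ndufa4l2 at 0.37 ± 0.13 (adjusted p = 0.0656, edgeR) in KO-SH against WT-SH. Cox6b1, the partner of Cox6b2, measured 809 ± 198 CPM in WT-SH and 652 ± 47.3 in KO-SH (-0.31 ± 0.12, adjusted p = 0.092, edgeR) and stood at 0.12 ± 0.12 in KO-MI against KO-SH.

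The changes of the members ran with transcript length in all 5 contrasts. Across the 92 tested members, which share the libraries, Spearman's correlation of the log2 change with length was 0.43 for WT-MI against WT-SH, -0.33 for KO-MI against KO-SH, 0.35 for KO-SH against WT-SH, -0.40 for KO-MI against WT-MI and -0.56 for the interaction. Over all genes the pattern was seen in the 3 contrasts that use KO-SH. Across 13392 genes, which share the libraries and are not independent replicates, this correlation was 0.35 for KO-SH against WT-SH, -0.40 for KO-MI against KO-SH and -0.36 for the interaction, but -0.04 for WT-MI against WT-SH and for KO-MI against WT-MI. Members under 1000 bases had a median of -0.17 in KO-SH against WT-SH and longer members -0.08. In KO-MI against KO-SH the values were 0.08 and -0.01, in WT-MI against WT-SH -0.17 and -0.09, and in KO-MI against WT-MI 0.07 and -0.02. Of 79 tested cytosolic ribosomal protein genes, 30 fell and 1 rose in KO-SH against WT-SH, and 38 rose and 1 fell in KO-MI against KO-SH. None was called in WT-MI against WT-SH (median -0.14) or in KO-MI against WT-MI (median 0.16).

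The length and GC correction changed which members were called. In KO-SH against WT-SH, 15.5% of all genes were then called, 1076 of the 13412 higher and 998 lower. Of the members 8 were called, and 3 of them were shared with the uncorrected 8. Cox6b2, Cox8a and Ndufaf5 stayed lower, Ndufaf4 was also lower, and Ndufa4l2 (0.57), Cox4i2 (0.47), Cox7a1 (0.41) and Ndufb3 (0.20) were higher. In KO-MI against KO-SH, 16.4% of all genes were called, 911 of the 13412 higher and 1286 lower. Of the members 23 were called, 1 higher (Cox6b2) and 22 lower, 3 of the 23 shared with the uncorrected 7. Without KO-MI-4 the correction gave 33 members, 2 higher and 31 lower, beside 19.6% of all genes. The 22 comprised 8 of 17 core subunits, among them Ndufs1 (-0.44), Ndufv1 (-0.31), Sdha (-0.28), Uqcrfs1 (-0.33), Atp5b (-0.25) and Atp5a1 (-0.22), and also Cox7a1 (-0.42) and Cox6c (-0.37). By complex, 4 of 8 complex III genes and 6 of 17 complex V genes were called lower, against 0 of each before the correction. In WT-MI against WT-SH, 3.67% of all genes and 1 member (Ndufb1-ps, -0.43) were called, and in the interaction 3.5% of all genes and 1 member (Cox6b2, 0.81). Which of the 2 scalings is nearer to the RNA of the hearts was not tested.

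**Figure D5:**
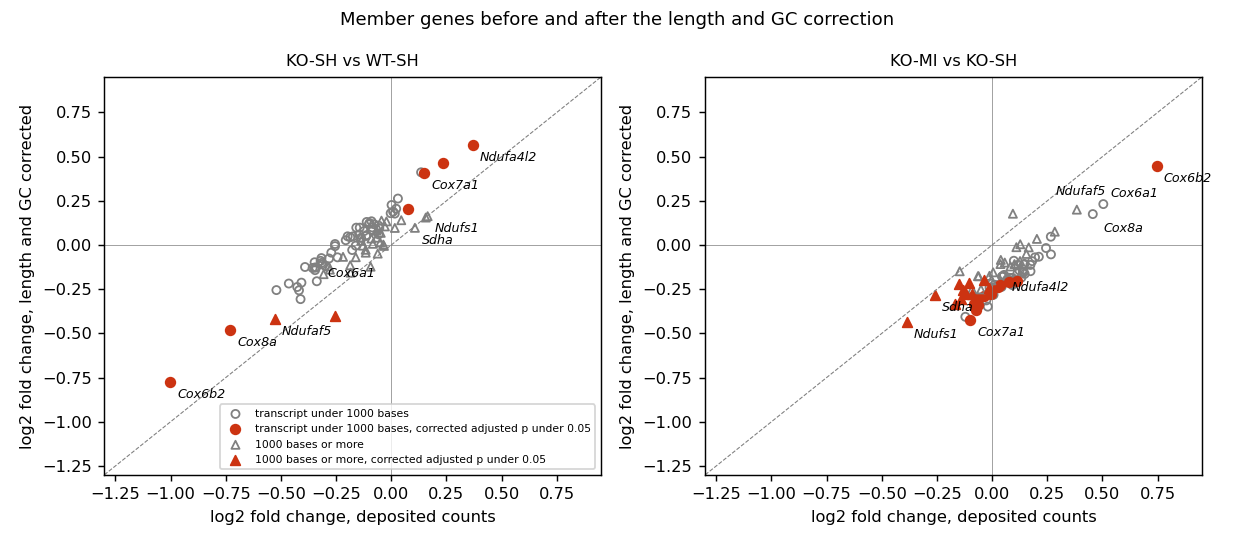
Log2 fold change of each tested member from the deposited counts (horizontal axis) and after the length and GC correction (vertical axis), for KO-SH against WT-SH (left) and KO-MI against KO-SH (right); circles are transcripts under 1000 bases, triangles longer ones, filled symbols passed after correction, and the dashed line is equality. Points lie above the line on the left and below it on the right for most short transcripts, and the median moves from -0.13 to 0.03 and from 0.05 to -0.19.

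Among the 13 subunits encoded by mitochondrial DNA, mt-Nd3 and mt-Nd5, both of complex I, and mt-Co3, of complex IV, were called. The calls were 2 of 13 (15.4%) in KO-SH against WT-SH and in KO-MI against KO-SH, near the 15.3% and 16.6% of all genes, and 1 of 13 (7.69%) in KO-MI against WT-MI and in the interaction, where 0.0149% and 2.74% of all genes were called. The gene mt-Nd3 was higher in the knock-out after either operation, at 6.56 ± 1.56 CPM in WT-SH and 36.4 ± 5.96 in KO-SH (2.47 ± 0.17, adjusted p = 5.49e-08, edgeR), and stood at 6.75 ± 1.23 in WT-MI and 38.2 ± 5.44 in KO-MI (2.51 ± 0.17, adjusted p = 3.14e-08, edgeR). Transcripts of mt-Nd5 measured 9465 ± 2129 CPM in WT-SH, 10114 ± 1355 in WT-MI, 14418 ± 766 in KO-SH and 8496 ± 1028 in KO-MI. It rose in KO-SH against WT-SH (0.61 ± 0.14, adjusted p = 0.00559, edgeR) and fell in KO-MI against KO-SH (-0.76 ± 0.14, adjusted p = 0.00129, edgeR), and its interaction was negative (-0.86 ± 0.19, adjusted p = 0.0189, edgeR). The gene mt-Co3 rose in KO-MI against KO-SH (0.44 ± 0.10, adjusted p = 0.00603, edgeR).

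Other genes of the pathway were called in shares on either side of those of all genes. Of 18 citrate cycle and pyruvate dehydrogenase genes, 4 (22.2%) fell in KO-MI against KO-SH and none rose, where 16.6% of all genes were called and 8.02% fell. They were Dlat (-0.39 ± 0.08), Pdha1 (-0.34 ± 0.09), Cs (-0.31 ± 0.08), which encodes citrate synthase, and Sucla2 (-0.30 ± 0.09). In KO-SH against WT-SH 1 of the 18 (5.56%) rose, against 15.3% of all genes called. Of 18 genes of electron carriers, 2 (11.1%) fell in KO-MI against KO-SH, Coq8a (-0.57 ± 0.11), which acts in ubiquinone synthesis, and Etfdh (-0.32 ± 0.08). In KO-SH against WT-SH 3 of them fell (Coq10b, Coq4 and Coq6) and 1 rose (Etfdh), 22.2% in all. Of 42 tested assembly factors outside the rule, 3 rose and 1 fell in KO-MI against KO-SH (9.52%), and 2 rose and 5 fell in KO-SH against WT-SH (16.7%). Of 20 genes of mitochondrial membranes and import, 1 rose and 2 fell in KO-MI against KO-SH (15%), Slc25a5 (0.31 ± 0.11), and Opa1 (-0.49 ± 0.10) and Mfn2 (-0.36 ± 0.08), which act in mitochondrial fusion. In KO-SH against WT-SH 1 of the 20 rose and 1 fell (10%). None of these 4 lists had a call in WT-MI against WT-SH or in KO-MI against WT-MI.

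Of 15 regulators of mitochondrial biogenesis, Ppargc1a, the coactivator PGC-1alpha, fell in WT-MI against WT-SH from 90.5 ± 15.2 to 43.4 ± 8.36 CPM (-1.07 ± 0.20, adjusted p = 0.01, edgeR). It was the only call among the 15 there (6.67%, against 2.25% of all genes), and no member passed. In KO-MI against KO-SH Ppargc1a stood at -0.38 ± 0.20 (adjusted p = 0.196, edgeR), and its interaction, 0.68 ± 0.28, did not pass (adjusted p = 0.203). The related coactivator Ppargc1b fell there from 59.9 to 33.3 CPM (-0.85 ± 0.11, adjusted p = 0.00014, edgeR), with the nuclear receptor Esrrg (-0.51 ± 0.16) and the mitochondrial transcription factor Tfb2m (-0.37 ± 0.12), 3 of 15 or 20%. In KO-SH against WT-SH, Ppargc1b (0.48 ± 0.11) and Tfb2m (0.45 ± 0.12) rose (13.3% of the 15). The 8 members that were lower in KO-SH all had a listed promoter: 2 held an NRF1 match, 2 an ETS match, 1 a YY1 match, 1 a MEF2 match and 0 an ERR match.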

How the data were processed

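Per the submitters' processing notes, HISAT2 2.2.1 and HTSeq 0.13.5 are named with build GRCm39, besides cutadapt 3.4, bcl2fastq 2.17, DESeq2 and FastQC, without their settings; strand setting and annotation release are not given in the sources used here. The authors deposited unnormalised counts of reads per Ensembl gene for the 16 libraries. Lines that name no gene were left out of library sizes: reads in no feature were 23.7 to 28.2% and ambiguous reads 1.56 to 2.08% of reads. No line counted multiply aligned reads (0 in every library), so members with close copies may be undercounted.

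Symbols, transcript length and GC content came from GENCODE for GRCm38 and promoters from RefSeq, so no coordinates of the files' build are given. Groups were taken from the labels. One edgeR 4.0.16 quasi-likelihood model (R 4.3.3, TMM, filterByExpr, robust, a mean per group, 12 residual degrees of freedom) was fitted to 13412 genes and tested on simulated data; p-values were adjusted over all genes and called under 0.05. Isoform ratios used exact permutation (scipy 1.17.1). The members and lists were chosen with earlier results of these data known. By rule the text names all called members, the complex IV isoform pairs, core subunits and untested members, giving the rest by count and range; examples among the core subunits and pathway genes were picked after their values were seen. Alternatives were DESeq2 1.42.0, limma 3.58.1 (voom), other scalings and filters, a length and GC correction (splines with 4 degrees of freedom), a replicate block, and samples left out. CPM scale each library by its reads in the tested genes times its TMM factor. The CPM of Y-linked reads and of the limit for a count of 0 used all reads assigned to genes. The limit that a count of 0 allows is 3 counts and covers counting error only.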

Additional observations from a re-analysis of the deposited data

Results flagged for a closer look

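The test of the interaction itself called Cox8a (0.734 on the log2 scale) and Cox6b2 (1.11), whose responses to infarction differed between genotypes. These 2 of 92 members are a share below the 2.74% of all genes called in that test. In 10 of 96 groups of 4 examined, 1 library stood far from the other 3, where chance alone gives about 1 in 20. For complex sums in KO-SH the lowest library, KO-SH-4, stood apart for complex I (12414 CPM) and complex IV (9200 CPM), and so did its Cox7a1 level (285.5 CPM). In KO-MI the highest library, KO-MI-4, stood apart for Cox7a2 (469 CPM) and Cox7a2l (239 CPM). Cox7a2l was also high in WT-SH-2 (212 CPM). Sdha was high in WT-SH-3 (1826 CPM) and low in WT-MI-1 (1514 CPM). The log2 ratio of Cox6a2 to Cox6a1 was high in KO-SH-2 (1.07), and that of Cox7a1 to Cox7a2 was low in WT-MI-2 (-0.62).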

How the results depend on the processing

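The count of members called moved by over 1.5 times under these settings. The share of all genes called in the same fit is given in brackets. For WT-MI against WT-SH it went from 0 to 1 with limma voom (3.69%) and 1 (Ndufb1-ps) with the length and GC correction (3.67%). Over fits leaving out 1 library it went from 0 to 1 (without WT-SH-1, 1.32%). For KO-SH against WT-SH it went from 8 to 14 with DESeq2 (18.4%) and 34 with limma voom (29.1%). It was 16 without WT-SH-1, KO-SH-2 and KO-MI-1 (9.19%). It was 4 without WT-SH-3 and WT-SH-4 (7.36%), a setting chosen after seeing the data. Leaving out 1 library gave 3 to 23: 23 without WT-SH-1 (15.4%), 12 without WT-SH-2 (10.2%), and 4 without WT-SH-3 (9.99%), WT-SH-4 (12.3%) or KO-SH-2 (9.77%). It was 5 without KO-SH-1 (9.82%) or KO-SH-3 (10.2%), and 3 without KO-SH-4 (9.59%). For KO-MI against KO-SH it went from 7 to 23 with the length and GC correction (16.4%). It was 33 with that correction and without KO-MI-4 (19.6%), a setting chosen after seeing the data. It was 4 without WT-SH-1, KO-SH-2 and KO-MI-1 (9.59%). Leaving out 1 library gave 4 to 8, with 4 without KO-SH-2 (10.2%) or KO-MI-2 (9.10%) and 8 without KO-MI-1 (15.5%). For the interaction it went from 2 to 5 with limma voom (11.4%). It was 1 each with the length and GC correction (3.5%, or 4.81% without KO-MI-4), with the replicate block (2.61%) and without WT-SH-3 and WT-SH-4 (1.31%). Leaving out 1 library gave 1 to 3, with 3 without WT-SH-2 (2.16%). For KO-MI against WT-MI it was 0 in every fit. No value that passed on the deposited counts changed sign; Cox4i1 (-0.28) and Ndufs8 (-0.29), above 0 and not called in KO-MI against KO-SH, were called lower with the correction and without KO-MI-4. The cause of these moves was not tested. Of 17 calls of named members, 9 ended in at least 1 fit without a library (51 of 152 fits), and 30 of 204 other fits ended a call. The replicate numbers of the labels did not pair the libraries as a set: same-numbered libraries correlated at -0.10 to 0.48, with 4 of 24 pairs over 0.1, and 5 of 16 libraries correlated best with their own number. The 0.48 was WT-SH-2 with WT-MI-2. These libraries also shared the lowest summed lung epithelial markers, 0.08 and 1.91 CPM, against at least 39.5 CPM elsewhere. Whether they share a batch or litter is not given. The block ended the calls of Atp5j2 (KO-SH against WT-SH) and of Cox8a (interaction); its counts were 0, 7, 8, 0 and 1 in the order WT-MI against WT-SH, KO-MI against KO-SH, KO-SH against WT-SH, KO-MI against WT-MI and interaction. For the isoform ratios the smallest adjusted p was 0.0857 with all libraries, and fits without a library cannot reach a smaller unadjusted p, so these fits say nothing about their stability.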
